A study of Mus musculus with 8 samples.

Results

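A set of 10 genes that p53 is known to activate, named p53 targets of cell cycle arrest, was followed in mouse embryos exposed to hydroxyurea. The name is that of the set, and an effect of each gene on the cell cycle was not tested. The genes were Cdkn1a, Ccng1, Btg2, Gadd45a, Plk2, Plk3, Gtse1, Zmat3, Psrc1 and Phlda3. They were taken by symbol, with every array probe whose RefSeq accession belongs to 1 of the 10 genes, which gave 11 probes of 55681 on the array and 10 genes of 20145 symbols. Cdkn1a had 2 probes and each other gene 1. The samples were RNA of whole CD-1 embryos, an outbred mouse stock, explanted on gestational day 9, an early stage of organ formation. The dams had received hydroxyurea at 400 mg/kg (4 samples) or saline (4 samples) by intraperitoneal injection 3 h before, and no other agent or genetic change is labelled in either group. Each sample was labelled with Cy3 and hybridised to a 1-colour Agilent array. The labels speak of 4 independent experiments without saying which samples share 1 or how many litters went into a sample, so the p-values below measure the spread between these samples.

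The protein p53, encoded by Trp53, is a transcription factor that is held at a low level by the ubiquitin ligase Mdm2 and accumulates when DNA is damaged or replication stalls. Hydroxyurea stalls replication because it inhibits ribonucleotide reductase, the enzyme that makes deoxyribonucleotides. Once active, p53 binds paired decamer sequences near its target genes, and the best known of these targets, Cdkn1a, encodes p21, an inhibitor of cyclin-dependent kinases that holds cells before S phase and before mitosis.

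To set the arrays beside the DNA in front of the genes, the 250 bases upstream of 12 annotated starts of 9 of the genes were read from RefSeq (mouse build GRCm38.p6) and searched on both strands. The search used the 20-base p53 element (2 decamers without a spacer, at most 1 mismatch), its 10-base half-site without mismatch, and its core CATG. It also used the cyclic AMP response element TGACGTCA, the CCAAT box, the cell cycle homology region TTTGAA with its variant TTCGAA, and TATAAA. The element and the half-site overlap by construction, and the core often lies within both. The 6 windows below are shown because they carry the p53 element, carry the cyclic AMP response element, or precede the pair of genes that also act on the mitotic spindle. Capitals mark the matches to the p53 element or half-site, the cyclic AMP response element and the CCAAT box (ATTGG on the other strand), and each window is written 5′ to 3′ and ends at the base before the start.
Cdkn1a, chr17:29090729-29090978, plus strand: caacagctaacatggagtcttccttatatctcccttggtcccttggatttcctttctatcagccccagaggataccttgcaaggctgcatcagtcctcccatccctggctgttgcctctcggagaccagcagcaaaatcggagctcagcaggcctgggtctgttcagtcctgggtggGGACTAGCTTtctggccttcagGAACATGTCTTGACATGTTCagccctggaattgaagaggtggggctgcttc
Ccng1, chr11:40755287-40755536, minus strand: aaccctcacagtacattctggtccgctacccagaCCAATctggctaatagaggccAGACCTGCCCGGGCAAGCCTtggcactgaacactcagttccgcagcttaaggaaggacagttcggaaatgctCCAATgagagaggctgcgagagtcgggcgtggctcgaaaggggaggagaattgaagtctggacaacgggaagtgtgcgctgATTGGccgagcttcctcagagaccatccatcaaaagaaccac
Btg2, chr1:134079156-134079405, minus strand: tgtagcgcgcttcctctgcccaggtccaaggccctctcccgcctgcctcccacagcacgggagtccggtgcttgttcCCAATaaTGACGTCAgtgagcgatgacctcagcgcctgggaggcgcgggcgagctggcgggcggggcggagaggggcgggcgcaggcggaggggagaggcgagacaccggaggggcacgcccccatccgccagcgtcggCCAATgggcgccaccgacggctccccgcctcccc
Plk2, chr13:110394794-110395043, plus strand: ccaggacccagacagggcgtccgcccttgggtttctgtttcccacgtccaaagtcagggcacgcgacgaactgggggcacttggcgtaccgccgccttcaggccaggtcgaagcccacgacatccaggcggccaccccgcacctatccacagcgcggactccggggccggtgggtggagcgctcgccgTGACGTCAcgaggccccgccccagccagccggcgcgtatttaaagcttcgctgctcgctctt
Gtse1, chr15:85859457-85859706, plus strand: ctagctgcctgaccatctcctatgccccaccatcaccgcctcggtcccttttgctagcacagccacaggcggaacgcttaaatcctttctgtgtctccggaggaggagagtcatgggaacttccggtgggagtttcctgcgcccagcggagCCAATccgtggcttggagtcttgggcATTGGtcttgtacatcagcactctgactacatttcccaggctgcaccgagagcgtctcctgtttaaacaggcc
Psrc1, chr3:108383554-108383803, plus strand: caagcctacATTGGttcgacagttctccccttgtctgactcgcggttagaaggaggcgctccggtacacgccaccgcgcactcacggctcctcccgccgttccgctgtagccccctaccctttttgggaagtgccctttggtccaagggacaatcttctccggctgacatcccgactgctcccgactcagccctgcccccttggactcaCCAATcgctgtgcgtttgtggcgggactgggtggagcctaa

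The p53 element lay in 2 of the 12 windows, in front of the upstream start of Cdkn1a, with 31 bases between it and the start, and in front of Ccng1, with 175 bases between. Of 32851 annotated windows of this length, 25 (0.0761%) held it. A half-site without mismatch lay in 3 windows, those of Cdkn1a, Ccng1 and Gadd45a, against 7.13% of all windows, and CATG in 3 windows against 53.9%. The cyclic AMP response element preceded Btg2 and Plk2 (1.55% of all windows), and the CCAAT box lay in 7 windows of 5 genes, among them Gtse1 and Psrc1 (33.8% of all windows). The 2 windows of Psrc1 overlap and share 1 CCAAT box, so that box is counted in both. TTTGAA was in 0 of the 12 windows (16% of all), its variant in 1, before the second start of Psrc1 (1.34% of all), and TATAAA in 0 (12.4% of all). A match is a description of the letters, and no match speaks only of this window.

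The share of spots well above background ranged over the arrays between 48.7% (hydroxyurea 3) and 62.3% (saline 1). The 75th percentile of an array's signal, which was used for scaling, was lowest on hydroxyurea 3 (249) and highest on saline 2 (516). Precision is limited by the 4 arrays per group. Signals are given below as multiples of the percentile, so that 1 equals it. Markers of the embryo proper, those of neural tissue, somites, heart, primitive erythroid cells, endothelium and gut endoderm, were well above background on all 8 arrays. The maternal and extra-embryonic markers were uneven. All 4 yolk sac markers were highest in saline 2. Afp was at 111 there, Ttr at 27.5 and Rbp4 at 93.7, against at most 42.5, 7.06 and 31.4 on any other array. Prl8a2, a marker of decidua, was at 0.0457, 5.28, 65.4 and 0.00870 in hydroxyurea embryos, against 0.00550, 0.110, 0.244 and 0.0199 in saline embryos. Prl3d1, a marker of trophoblast, was at 0.102, 5.27, 2.70 and 0.0666 in hydroxyurea embryos, against 0.175, 0.191, 0.137 and 0.0700 in saline embryos. By Prl8a2 and Prl3d1, hydroxyurea 2 and 3 thus stood apart from the other 6 samples. Other markers of these tissues did not set them apart. In hydroxyurea 2 and 3 Wnt4 (decidua) was at 0.543 and 0.560, Igfbp1 (decidua) at 0.240 and 0.233, and Plac1 (trophoblast) at 0.830 and 1.06. All of these lay within the saline ranges, 0.390 to 0.595 for Wnt4, 0.172 to 0.484 for Igfbp1 and 0.644 to 1.13 for Plac1.

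All 11 probes passed the filter, which asked for a signal well above background on 4 or more of the 8 arrays, and 10 of them were well above background on every array. Differences are given as log2 of hydroxyurea over saline. Of the 10 genes, 8 were higher in hydroxyurea embryos (3.62% of named genes were), 0 were lower (2.02% of named genes were), and Plk3 and Psrc1 did not pass an adjusted p of 0.05 with limma. By probe, 9 of 11 were higher, against 2.53% of the 30677 probes tested (4.3% of them were lower), and 9 of 11 had no overlap between the groups with hydroxyurea above saline, against 7.37% of all probes. At an unadjusted p under 0.05, 9 of the 10 genes were higher and 0 were lower. Many probes pass that looser threshold, since the Plk3 probe, which passed it, ranked 4770 by p-value among the 30677 probes. The share of all probes passing it is not given, so the unadjusted counts here and below stand without a background. The median difference over the 10 genes was 1.26, against 0.10 over the 14631 named genes and 0.021 over all probes. In whole embryos a change in the number of cells of a type and a change in RNA per cell cannot be told apart.

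**Figure D1:**
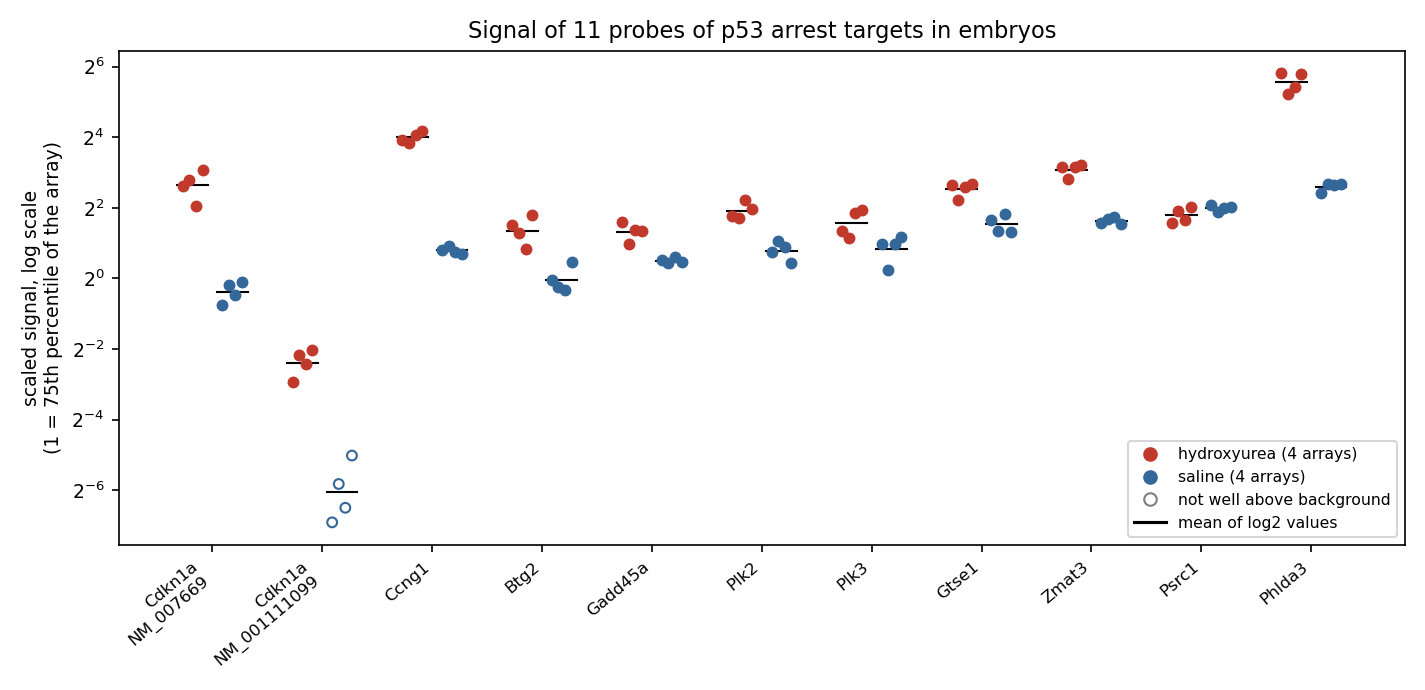
Scaled signal of the 11 probes on each array, on a log axis where 1 is the 75th percentile of the array, with the 4 hydroxyurea arrays left of the 4 saline arrays of each probe. Points are arrays, open points are not well above background, and lines are means of the log2 values. The groups overlap for Plk3 and Psrc1 only, and heights of different probes cannot be set against each other.

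Cdkn1a, the gene of the kinase inhibitor p21, was measured by 10 spots of the probe for NM_007669 on every array. Its scaled signal was 6.18, 6.92, 4.14 and 8.47 in hydroxyurea embryos, against 0.593, 0.884, 0.715 and 0.924 in saline embryos. Every hydroxyurea array lay far above every saline array, with hydroxyurea 3 the lowest and hydroxyurea 4 the highest of the treated samples. The log2 difference was 3.02 ± 0.24 (SE, n = 4 each, 95% interval 2.47 to 3.57), an 8.11-fold higher signal (limma adjusted p = 0.000389). The SD between the 10 spots of an array was 0.0255 to 0.0738 on hydroxyurea arrays and 0.0491 to 0.109 on saline arrays (log2), while the SD between samples was 0.43 in hydroxyurea and 0.30 in saline embryos. The spread between samples of a group was thus larger than that between spots.

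The second Cdkn1a probe matches NM_001111099, another transcript of the gene. It gave 0.131, 0.221, 0.185 and 0.246 in hydroxyurea embryos, all well above background, against 0.00831, 0.0176, 0.0111 and 0.0308 in saline embryos, where 0 of 4 arrays were well above background. The saline level is therefore only a bound. Measured against the dimmest signals that the software marked as well above background, the hydroxyurea signal of this probe was 6.06-fold higher. That value depends on how background is treated and is no firm lower limit. The limma adjusted p of 0.00151 belongs to the fitted difference. With the normexp background correction the fitted log2 difference of this probe was 1.06, against 3.67 as measured without it.

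Ccng1 encodes cyclin G1, which recruits the phosphatase PP2A to Mdm2. Its signal was 15.1, 14.2, 16.7 and 18.1 in hydroxyurea embryos, against 1.73, 1.89, 1.69 and 1.62 in saline embryos. The groups lay far apart and each was narrow, with an SD of 0.16 in hydroxyurea and 0.093 in saline embryos (log2). The difference was 3.20 ± 0.14 (SE, n = 4 each, 95% interval 2.88 to 3.53), or 9.21-fold (limma adjusted p = 3.61e-05). By p-value the Ccng1 probe ranked 2 among the 30677 probes. Ccng1 and Cdkn1a are the pair with a p53 element in the windows shown above.

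Phlda3 encodes a small protein with a pleckstrin homology domain that competes with the kinase Akt for membrane lipids. Its signal was 56.2, 37.5, 42.7 and 55.0 in hydroxyurea embryos, against 5.33, 6.33, 6.23 and 6.44 in saline embryos. Each treated sample was several times above each saline sample. The difference was 2.96 ± 0.18 (SE, n = 4 each, 95% interval 2.56 to 3.36), or 7.78-fold (limma adjusted p = 0.000102). Its upstream window held none of the motifs searched for, and its difference was of the size of those of Cdkn1a and Ccng1.

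Zmat3, also called Wig-1, encodes a zinc finger protein that binds RNA. Its signal was 8.97, 7.05, 8.88 and 9.21 in hydroxyurea embryos, against 2.97, 3.24, 3.36 and 2.91 in saline embryos. Hydroxyurea 2 stood below the other 3 treated samples, which lay close together, and was still above every saline sample. The difference was 1.45 ± 0.15 (SE, n = 4 each, 95% interval 1.11 to 1.78), or 2.73-fold (limma adjusted p = 0.00133).

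Btg2 encodes an antiproliferative protein that binds the CCR4-NOT deadenylase complex. Its signal was 2.83, 2.44, 1.77 and 3.45 in hydroxyurea embryos, against 0.964, 0.847, 0.791 and 1.37 in saline embryos. The groups did not overlap, but hydroxyurea 3 and saline 4 came near each other. The difference was 1.39 ± 0.25 (SE, n = 4 each, 95% interval 0.83 to 1.96), or 2.63-fold (limma adjusted p = 0.0130), and its upstream window holds a cyclic AMP response element shown above.

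Gadd45a encodes a protein that binds Pcna and p21 and inhibits the mitotic kinase Cdk1 with cyclin B1. Its signal was 3.01, 1.97, 2.61 and 2.53 in hydroxyurea embryos, against 1.43, 1.35, 1.52 and 1.37 in saline embryos. The groups did not overlap, and hydroxyurea 2 came nearest to the saline arrays. The difference was 0.82 ± 0.16 (SE, n = 4 each, 95% interval 0.45 to 1.19), or 1.76-fold (limma adjusted p = 0.0200). This was the least stable of the 8 calls. It was lost without hydroxyurea 1 (adjusted p = 0.0593), without hydroxyurea 4 (0.0660) and without any 1 of saline 1 to 4 (0.0516 to 0.0604), while the log2 difference stayed between 0.73 and 0.93 over all 8 fits that left out 1 array.

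Plk2 and Plk3 are polo-like kinases that respond to stress, unlike the mitotic kinase Plk1. Plk2 had 3.43, 3.28, 4.62 and 3.90 in hydroxyurea embryos, against 1.68, 2.08, 1.85 and 1.36 in saline embryos. All treated samples were above all saline samples. The difference was 1.13 ± 0.18 (SE, n = 4 each, 95% interval 0.71 to 1.55), or 2.19-fold (limma adjusted p = 0.00887). For Plk3 the signal was 2.55, 2.23, 3.62 and 3.81 in hydroxyurea embryos, against 1.95, 1.17, 1.98 and 2.27 in saline embryos. Here the groups overlapped, since hydroxyurea 2 lay just below saline 4. The difference of Plk3 was 0.73 ± 0.26 (SE, n = 4 each, 95% interval 0.15 to 1.32, limma adjusted p = 0.123). It passed the threshold in 1 of 22 alternative settings, the normexp background correction (0.72, adjusted p = 0.0448).

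Gtse1 and Psrc1 are p53 targets whose proteins also bind microtubules of the mitotic spindle, and Gtse1 moves p53 out of the nucleus in G2. Gtse1 had 6.30, 4.66, 5.99 and 6.40 in hydroxyurea embryos, against 3.13, 2.56, 3.53 and 2.50 in saline embryos. The groups did not overlap, and hydroxyurea 2 was again the lowest treated sample. The difference was 1.0 ± 0.18 (SE, n = 4 each, 95% interval 0.60 to 1.40), or 2.0-fold (limma adjusted p = 0.0130).

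Psrc1 had 2.97, 3.75, 3.14 and 4.07 in hydroxyurea embryos, against 4.22, 3.68, 3.98 and 4.05 in saline embryos. The treated samples spread across and below the saline range. The difference was -0.20 ± 0.15 (SE, n = 4 each, 95% interval -0.55 to 0.14, limma adjusted p = 0.452), and it passed the threshold in 0 of 22 alternative settings. The interval leaves out a rise of the size measured for any of the 8 higher genes.

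Because both genes are linked to mitosis, they were also set against 22 genes of mitosis on the same arrays, a comparison chosen after the values were seen. Of these 22 genes 11 were lower in hydroxyurea embryos and 0 higher, with a median difference of -0.80, against 2.02% of named genes lower and 3.62% higher. Hmmr, a spindle protein, was at -1.22 ± 0.13 (limma adjusted p = 0.00150), Ube2c, which works with the anaphase-promoting complex, at -1.32 ± 0.16 (0.00230), and Tpx2, which activates Aurora A, at -1.17 ± 0.15 (0.00315; SE, n = 4 each). A second probe of Tpx2 gave -2.38 ± 0.31 (adjusted p = 0.00373) and a second probe of Ube2c -1.32 ± 0.17 (adjusted p = 0.00310). The mean of the 22 genes minus its saline mean was -0.56, -0.90, -0.55 and -0.86 (log2) on the 4 hydroxyurea arrays. At an unadjusted p under 0.05, 17 were lower and 0 higher. The number called lower was 6 without hydroxyurea 4, without saline 1 or without saline 4, 7 without saline 2 and 5 without saline 3.

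Relative to that mean, Gtse1 was 1.72 higher in hydroxyurea than in saline embryos (log2), at 1.59 to 2.01 on the treated arrays and -0.15 to 0.21 on the saline arrays. Psrc1 was 0.52 higher relative to it, at 0.14 to 0.90 on the treated arrays and -0.081 to 0.10 on the saline arrays. These values are a description without a test, since Gtse1 was higher and most of the mitosis genes lower before the comparison was chosen. The differences of the 22 genes ran from -1.32 to 0.11, so that Psrc1 at -0.20 lay within their range and Gtse1 above it.

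**Figure D2:**
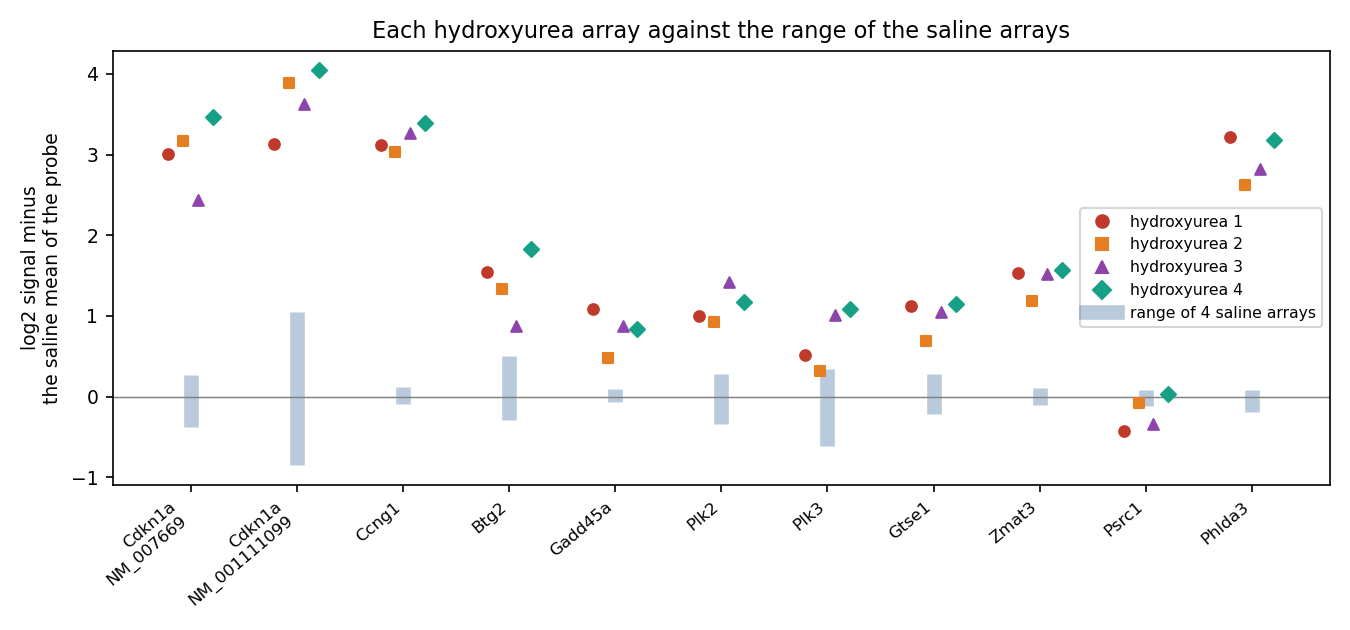
Log2 signal of the 11 probes on each hydroxyurea array minus the mean of the saline arrays, with grey-blue bars for the range of the 4 saline arrays. Hydroxyurea 2 is the lowest treated array for 7 probes and hydroxyurea 4 the highest for 8, and only Plk3 and Psrc1 have points inside the saline range.

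The treated arrays were compared over the members. Hydroxyurea 2 was the lowest treated array for 7 of the 11 probes and hydroxyurea 4 the highest for 8. Over the 8 higher genes the median deviation from the hydroxyurea mean was 0.10 for hydroxyurea 1, -0.23 for hydroxyurea 2, 0.055 for hydroxyurea 3 and 0.16 for hydroxyurea 4 (log2). Over all 777 probes called higher it was 0.13, -0.21, -0.029 and 0.12 on these arrays in turn, so that hydroxyurea 2 was the lowest there too. The order was not the same for every gene, since hydroxyurea 3 was lowest for Cdkn1a (NM_007669) and Btg2 and highest for Plk2.

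Each slide held 2 hydroxyurea and 2 saline arrays, so the differences could be read on each. For Cdkn1a (NM_007669) the difference was 3.18 on slide 1 and 2.87 on slide 2, for Ccng1 3.01 and 3.39, and for Phlda3 2.98 and 2.94. Plk2 had the widest gap, 0.84 on slide 1 and 1.42 on slide 2, with an adjusted p of 0.999987 for the slide term (limma interaction), as for every other member probe. Over all 30677 probes 0 passed that slide test, and 295 did at an unadjusted p under 0.05. With slide as a block in the fit, 9 member probes and 8 member genes were higher, as without it.

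The decidua and trophoblast lists were also summed. The summed signal of 3 decidua markers was 0.790 to 66.2 in hydroxyurea and 0.630 to 1.14 in saline embryos. Prl8a2 made up most of that sum in hydroxyurea 2 (5.28 of 6.06) and hydroxyurea 3 (65.4 of 66.2). That of the 3 trophoblast markers on the array was 1.38 to 6.11 in hydroxyurea and 0.723 to 1.32 in saline embryos, with Tpbpa above background on no array. The trophoblast sums did not overlap between the groups, while Prl3d1 and Plac1, read singly, did. Without hydroxyurea 2 and 3, an alternative added after the values were seen, 9 member probes and 8 member genes were again higher, with log2 differences of 3.24 for Cdkn1a (NM_007669), 3.25 for Ccng1, 3.20 for Phlda3, 1.55 for Zmat3, 1.69 for Btg2, 1.13 for Gtse1, 1.09 for Plk2 and 0.96 for Gadd45a (limma adjusted p = 0.0126 for Gadd45a). Plk3 was then at 0.80 (adjusted p = 0.124) and Psrc1 at -0.19. Without these arrays 11 of the 22 mitosis genes were lower, 19 of 30 other p53 targets were higher, and of the family relatives described below Ccng2 was higher and Plk1 and Tob1 were lower. Calls rose over all 30677 probes too, to 1808 higher and 2907 lower, against 777 and 1319 with all arrays. Leaving out hydroxyurea 2 alone gave 2215 higher and 2642 lower, which bears on the further calls given below for that setting.

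The summed signals of further marker lists were compared in the same way. The summed signal of 4 endothelial markers was 7.21 to 16.3 in hydroxyurea and 17.8 to 30.6 in saline embryos, and that of 4 heart markers 78.5 to 99.3 in hydroxyurea and 61.2 to 80.3 in saline embryos. For 4 yolk sac markers it was 15.4 to 81.1 in hydroxyurea and 18.03 to 233 in saline embryos, with 233 in saline 2. For the 2 adult erythroid markers on the array it was 7.91 to 31.7 in hydroxyurea and 9.33 to 20.4 in saline embryos. The endothelial sums did not overlap between the groups, and the heart, yolk sac and adult erythroid sums did. Kdr made up most of the endothelial sum, at 4.85 to 12.9 in hydroxyurea and 13.8 to 25.6 in saline embryos. Cdh5, Pecam1 and Tek, read singly, overlapped between the groups. The summed ranges of the 4 neural markers were 20.4 to 25.9 in hydroxyurea and 22.5 to 28.1 in saline embryos, and those of the 4 somite markers 16.2 to 25.8 in hydroxyurea and 20.6 to 25.5 in saline embryos. They were 1417 to 2431 in hydroxyurea and 1447 to 2228 in saline embryos for 4 primitive erythroid markers, and 4.70 to 8.34 in hydroxyurea and 6.17 to 8.70 in saline embryos for 3 gut endoderm markers. No single marker of these lists passed the test with limma, and the part of the lists in the differences of the 10 genes was not tested.

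Around the 10 genes, the pathway was read from lists chosen with earlier results of these arrays known, so their counts are descriptions. Of 30 measured other targets of p53, 15 were higher and 0 lower (22 and 0 at an unadjusted p under 0.05), against 3.62% of named genes higher, with a median difference of 0.83. Zfp365, which acts in replication stress, was at 3.60 ± 0.19 (limma adjusted p = 7.93e-05), Trp53inp1, a p53 cofactor, at 3.23 ± 0.17 (7.93e-05), and Pmaip1, which encodes the pro-apoptotic protein Noxa, at 3.61 ± 0.22 (0.000102; SE, n = 4 each). The differences of Cdkn1a, Ccng1 and Phlda3 were of this size, and those of the other members that rose were between 0.82 and 1.45. A second probe of Trp53inp1 gave 2.18 ± 0.22 (adjusted p = 0.00117).

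Of 8 genes for p53 and its regulators, 1 was higher and 0 lower, against 3.62% of named genes higher and 2.02% lower. Their median difference was 0.017. The higher gene was Atm, a kinase of the response to DNA breaks, at 0.66 ± 0.14 (limma adjusted p = 0.0266). That call was lost without hydroxyurea 1, 3 or 4 or saline 2, 3 or 4 (adjusted p 0.0642 to 0.0854), and a second Atm probe gave 0.53 ± 0.30 (adjusted p = 0.314). Trp53 itself was at -0.67 ± 0.24 (limma adjusted p = 0.131), and without hydroxyurea 2 and 3 at -1.01 (0.0283). Mdm2, which stands in both of these lists as a target and the ligase of p53, was at 0.78 ± 0.22 (limma adjusted p = 0.0666). Its groups did not overlap, and it passed the threshold in 5 of 22 alternative settings, among them without hydroxyurea 2 (0.88, adjusted p = 0.0355) and without hydroxyurea 2 and 3 (1.097, adjusted p = 0.0163).

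A list of genes linked to p21 held cyclins, kinases, pocket proteins, E2f factors and Pcna. Among its 14 measured genes, 2 were higher and 1 lower, against 3.62% of named genes higher and 2.02% lower. The median difference was 0.14. Rb1, the retinoblastoma protein, was at 1.27 ± 0.17 (limma adjusted p = 0.00414) and Ccne1, cyclin E1, at 0.91 ± 0.17 (0.0154; SE, n = 4 each), though a second Ccne1 probe at 0.88 ± 0.26 did not pass (0.0762). Cdk6 was lower, but only 1 of its 4 hydroxyurea arrays was well above background. The fitted value of Cdk6 was -2.92 ± 0.64 (adjusted p = 0.0283), and it did not pass in any fit that left out only hydroxyurea 1, 3 or 4 or a saline array (adjusted p 0.0582 to 0.0835) nor with the normexp correction (-0.55, adjusted p = 0.0947). Cdk6 did pass without hydroxyurea 2 (-3.65, limma adjusted p = 0.000771) and without hydroxyurea 2 and 3 (-3.98, 0.000344), again as fitted values of a dim probe. Without hydroxyurea 2, Ccnd1 (0.44, adjusted p = 0.0487) and E2f1 (0.62, adjusted p = 0.0321) were higher as well.

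Family relatives of the members that are not classical p53 targets were read in the same way. Of 17 measured relatives 0 passed in either direction with limma, against 3.62% of named genes higher and 2.02% lower. At an unadjusted p under 0.05, 0 were higher and 3 lower, and the median difference was 0.15. Cdkn1b, which encodes p27, the relative of p21, was at -0.66 ± 0.17 (limma adjusted p = 0.0501), and Plk1, which also stands among the mitosis genes, at -0.87 ± 0.25 (0.0676; SE, n = 4 each). Both had all hydroxyurea arrays below all saline arrays. The share of all probes separated in that direction is not given, so this stands without a background. Both genes lay near the threshold and passed it in 7 (Cdkn1b) and 8 (Plk1) of 22 alternative settings. Without hydroxyurea 2, Cdkn1b (-0.57, adjusted p = 0.0477) and Tob1 (-1.17, 0.0195) were lower and Ccng2 (0.63, 0.0341) was higher, and without hydroxyurea 3, Plk1 (-1.05, 0.0367) was lower.

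**Figure D3:**
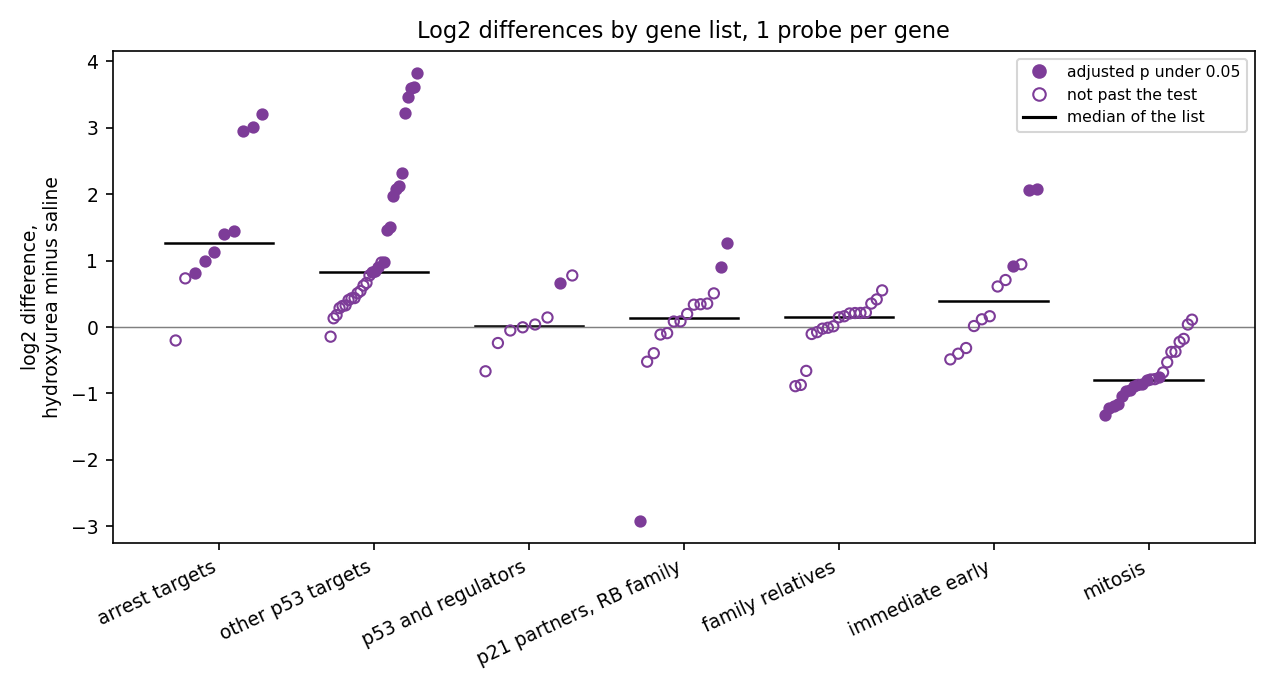
Log2 difference, hydroxyurea minus saline, of each measured gene of 7 lists by the probe that stands for it, with filled points for an adjusted p under 0.05 and lines for the median of the list. The arrest targets have a median of 1.26 and the mitosis genes of -0.80, and the low point among the p21 partners is Cdk6.

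The 5 genes outside the set whose 8 array values, centred on the saline mean, lay nearest to those of Cdkn1a were Trp53inp1, Mab21l3, Ddit4l, Insyn2a and P2ry6. The root mean square distance over the 8 arrays was 0.256 for Trp53inp1, 0.292 for Mab21l3, 0.304 for Ddit4l, 0.340 for Insyn2a and 0.345 for P2ry6 (log2). Their differences were between 2.64 (Insyn2a) and 3.37 (Ddit4l), near the 3.02 of Cdkn1a. Ddit4l, Insyn2a and P2ry6 also had hydroxyurea 4 highest and hydroxyurea 3 lowest among the treated arrays, like Cdkn1a. The 5 genes were chosen by their nearness over these same arrays, so the likeness is a description only.

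The authors' deposited table of differential genes lists 1345 of the 55681 probes (2.42%), and 9 of the 11 member probes are in it, the same 9 that passed here. Plk3 and Psrc1 are not listed. In the authors' deposited table the difference between the group means was 3.01 for Cdkn1a (NM_007669), 3.20 for Ccng1 and 0.81 for Gadd45a, which lies 0.00594 to 0.00595 below the values given above for each of the 9 probes.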

How the data were processed

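Arrays of 4 hydroxyurea and 4 saline samples of whole embryos were grouped by their labels, and replicate numbers only name samples. The deposited scanner files hold 1-colour intensity values made with Agilent Feature Extraction 11.5.1.1, per the submitters' processing notes, and background-subtracted, per the file headers. The authors' deposited table of differential genes holds log2 values centred on each probe's median, and how they were normalized and tested is not given in the sources used here.

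Spots marked as outliers (151 to 315 per array) were left out, and 0 spots were saturated. Log2 processed signals were averaged per probe, and the array's 75th percentile was subtracted. Probes well above background on at least 4 arrays with a value on every array were tested (30677, after 82 with a missing value were left out). The fit was limma 3.58.1 under R 4.3.3 (functions lmFit and eBayes, no covariate, two-sided, Benjamini-Hochberg over all probes, called at an adjusted p under 0.05). The brightest probe by mean signal stood for its gene in counts of genes. Symbols came from a RefSeq table of GRCm38.p6 through the accessions (26582 probes with a symbol, 29099 without), while the headers of 4 arrays name mm9, so no array position is given. The scaling sets all changes relative to the bulk of the probes. Steps were tested on simulated data.

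Members and lists were chosen with earlier results of these data known. Named were all members, in each other list the 3 called genes with the lowest p or, with none called, the 2 lowest, Trp53 and Mdm2 always, and the 5 genes nearest to Cdkn1a. Alternatives were other normalizations, background corrections, filters, features, slide terms, a variance trend, and each array left out. The normexp correction (offset 50) used median signals because the files hold no mean signal. The result of 1 list of markers is not reported here.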

Additional observations from a re-analysis of the deposited data

Results flagged for a closer look

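In 22 sets of 4 arrays (11 probes in each group), the highest and the lowest array were set against the others by Dixon's ratio, which flags about 1 in 20 such sets by chance. Of these, 1 met it, Zmat3 in hydroxyurea embryos, where hydroxyurea 2 lay at 2.82 on the log2 scale (7.05 times the array's 75th percentile) with a ratio of 0.865 against the critical value of 0.83. Without hydroxyurea 2 the log2 difference of Zmat3 was 1.54, against 1.45 with it.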

How the results depend on the processing

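The labels do not say which samples share an experiment. Each of 4 positions (slide and row) held 1 hydroxyurea and 1 saline array. The deviations of these pairs from their group means correlated between -0.18 and 0.40 over probes, so the positions were not taken as pairs. The best match of each hydroxyurea array was on its own slide. It was saline 2 for hydroxyurea 1 (0.24), saline 1 for hydroxyurea 2 (0.22), saline 3 for hydroxyurea 3 (0.29) and saline 4 for hydroxyurea 4 (0.40). Pairs by best match were not fitted. With position as a replicate block, a fit chosen after seeing the data, 1799 probes were called and 9 member probes of 8 genes were higher, while Atm was lost (adjusted p = 0.0581) and Plk1 passed (0.0378). The count of probes called, 2096 (777 higher, 1319 lower), was 910 with no filter on dim probes, 52 on slide 1 alone, 3 on slide 2 alone, 4715 (1808 higher, 2907 lower) without hydroxyurea 2 and 3, and between 862 (without hydroxyurea 4) and 4857 (without hydroxyurea 2) with 1 array left out. On each single slide, with 2 arrays per group, 4 member probes of 3 genes were higher on slide 1 and 0 member probes of 0 genes on slide 2 with limma, while 9 member probes were higher on each at an unadjusted p under 0.05. With 1 array left out, 8 to 9 member probes and 7 to 8 member genes were higher. With no filter 7 member probes and 6 genes were higher, Gadd45a (adjusted p = 0.0811) and Gtse1 (0.0525) being lost. With normexp 10 member probes of 9 genes were higher, Plk3 being added. The split was 925 higher to 1027 lower among probes above background on all 8 arrays. Median centring moved the median of all probes to 0.139, against 0.021. No member changed direction in the 22 alternatives, and Psrc1 passed in 0 of them. Gtse1 minus the mitosis mean was 1.62 to 1.84 and Psrc1 minus it 0.39 to 0.64. Dim probes, such as Cdkn1a NM_001111099 in saline embryos, limit the values to bounds. The cause of these shifts was not tested.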

Other observations

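Of 12 immediate early genes, which respond to many stimuli without new protein synthesis, 3 were higher in hydroxyurea embryos and 0 lower, against 3.62% of named genes higher, with a median difference of 0.39. Egr1, a zinc finger factor, was at 2.07 ± 0.19 (SE, n = 4 each, limma adjusted p = 0.000604), Fos, a part of AP-1, at 2.06 ± 0.21 (0.00133), and Klf4, a factor that also restrains proliferation, at 0.92 ± 0.18 (0.0196). The call of Klf4 was lost without hydroxyurea 1 or 4 or saline 1, 2 or 3 (adjusted p 0.0572 to 0.0680), and without hydroxyurea 2 Egr2 (1.18, adjusted p = 0.0492) and Ier3 (0.84, adjusted p = 0.0383) were higher as well. In saline embryos 2 of 4 arrays were well above background for Fos. With the normexp background correction the log2 difference of Fos was 0.71.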
